A study of Mus musculus with 8 samples.

Results

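The antioxidant enzymes described here are the glutathione peroxidases Gpx1, Gpx2, Gpx3 and Gpx4, the superoxide dismutases Sod1 and Sod2, catalase (Cat), the peroxiredoxins Prdx1 and Prdx6, and thioredoxin reductase Txnrd1. They were taken by gene symbol from a table of 17041 genes, where all 10 were found and all 10 were among the 13020 genes with a mean normalized value of at least 10. The set was chosen by function around Gpx1, which was itself selected on the authors' comparison of these libraries, so the group differences of these genes are given as descriptions and carry no p-value.

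Messenger RNA came from the proximal large intestine of 8 mice, 1 library per mouse. Every mouse lacked Apoe, the gene for a lipoprotein ligand, whose loss makes mice prone to atherosclerosis, and every mouse was raised germ-free, given its bacteria by gavage at 8 weeks of age and dissected at 26 weeks. In the core group (3 mice) the bacteria given make no butyrate, and the other 5 mice, called Roseburia mice below and labelled core plus R. intestinalis in the plots, got these bacteria together with the butyrate producer Roseburia intestinalis. The comparison asks what the added butyrate producer changes in the gut wall; with no germ-free or conventionally raised mice among these libraries, it says nothing about colonization itself. The submitters' names number the core libraries 3 to 5 (replicates 1 to 3 here). Core libraries of other numbers are absent from the authors' deposited table and were not analysed here. The name the authors gave this comparison appears to say that 1 core library was left out. If so, it was left out before their probabilities were computed. Whether groups overlap therefore holds for these libraries only. Diet, cage and isolator of each mouse are not stated, and mice of a group may have shared an isolator.

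Superoxide, made by the respiratory chain and by oxidases, is turned into hydrogen peroxide by superoxide dismutases, Sod1 in the cytosol and Sod2 in mitochondria. Peroxide is then removed by catalase in peroxisomes, by glutathione peroxidases with glutathione, and by peroxiredoxins, which are mostly reset by thioredoxin and thioredoxin reductase. In the gut, Gpx2 is the epithelial form and Gpx1 the form found in nearly all cells, Gpx3 is secreted, and Gpx4 reduces lipid peroxides within membranes. Gpx1 to Gpx4 and Txnrd1 carry selenocysteine, which is read from a TGA codon that otherwise stops translation.

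The selenocysteine codon sets these 5 members apart from the other 5, and its surroundings show how close the peroxidases are to each other. In the coding sequences below (5′ to 3′, GENCODE M21 transcripts, build GRCm38) the capitals mark the in-frame TGA.
Gpx1: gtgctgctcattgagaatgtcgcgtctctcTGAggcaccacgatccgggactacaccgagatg
Gpx2: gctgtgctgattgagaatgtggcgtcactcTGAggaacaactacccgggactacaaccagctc
Gpx3: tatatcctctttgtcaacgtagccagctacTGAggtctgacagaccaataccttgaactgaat
Gpx4: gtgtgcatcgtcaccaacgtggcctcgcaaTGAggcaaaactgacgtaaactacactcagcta
Txnrd1: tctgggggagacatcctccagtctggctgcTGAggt
Over these 63 bases Gpx2 was identical to Gpx1 at 49 positions, Gpx4 at 35 and Gpx3 at 27, TGA included. The TGA was codon 47 in Gpx1, 40 in Gpx2 and 73 in both Gpx3 and Gpx4. In Txnrd1 it was codon 498, followed by 1 further codon before the stop. It lay before the last exon junction in every peroxidase, by 105 bases in Gpx1, 102 in Gpx2, 240 in Gpx3 and 342 in Gpx4, and within the last exon in Txnrd1. A stop codon well before the last junction is the feature that exposes an mRNA to nonsense-mediated decay. All 4 peroxidases share it, and mRNA decay was not measured here.

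Libraries differed in technical measures, in part along the groups. Estimated depth ran from 4596737 to 15345326 reads, and Txnrd1, the member with the lowest values, stood for 226 to 1210 estimated reads. GC-rich transcripts (the top 20%, at least 55.7% GC) had a median log2 deviation of 0.621 in Roseburia replicate 1 and of 0.27 in its replicate 5, against −0.361 in its replicate 2, −0.327 in core replicate 3 and −0.301 in core replicate 1. Short transcripts (under 1200 bases) ran from −0.14 in Roseburia replicate 1 to 0.172 in core replicate 3. Epithelial markers were high in every library, with summed values of 77510 to 86670 in core and 74200 to 103600 in Roseburia libraries. Smooth muscle markers summed to 147400 to 200600 and 97340 to 171800, so the samples held muscle as well as mucosa.

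Gpx1 was lower with R. intestinalis, by a small and even amount. Its normalized values were 3063, 2755 and 2917 in core replicates 1 to 3 and 2412, 2351, 2296, 2579 and 2461 in Roseburia replicates 1 to 5. Every Roseburia library was below every core library, with means of 2912 ± 154 (SD, n = 3) and 2420 ± 109 (SD, n = 5) and a log2 difference of −0.27 (SE 0.106). In the authors' deposited table Gpx1 had a fold of 0.83 and a posterior probability of differential expression of 1, shared by 31 genes. In bulk tissue, fewer cells of a type and less RNA per cell cannot be told apart.

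**Figure D1:**
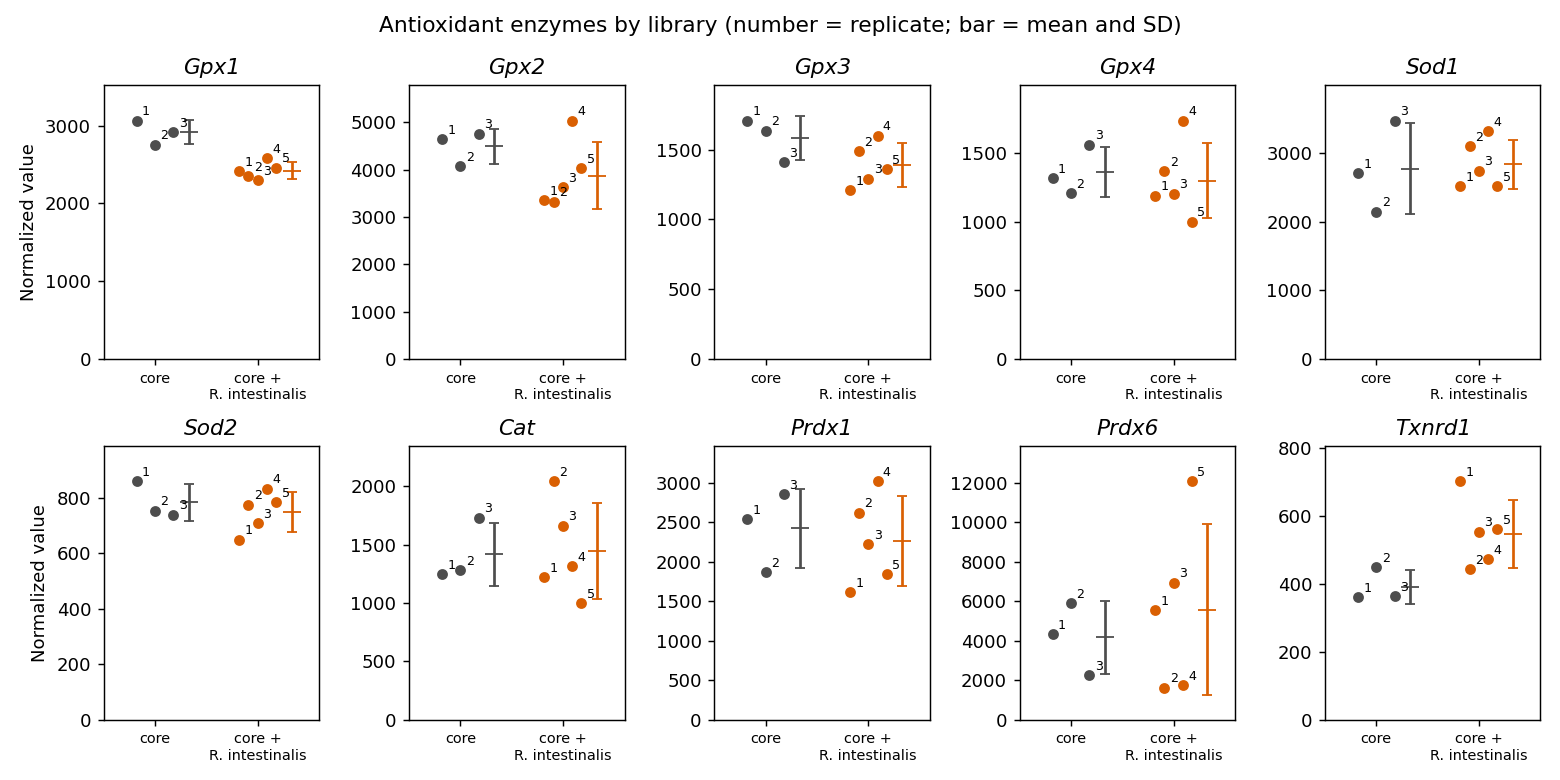
Normalized value of each antioxidant enzyme in each library (points, numbered by replicate) with bars for the mean and SD of 3 core and 5 Roseburia mice. Gpx1 lies at 2755 to 3063 in core libraries, above the 2296 to 2579 of Roseburia libraries, while Prdx6 spans 1626 to 12059 within 1 group.

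Gpx1 varied little within groups. Its residual SD, the spread of log2 values around the group means, was 0.0686, at percentile 0.369 of all genes tested, where the median gene had 0.302. This steadiness belongs to the comparison that brought Gpx1 in, and it is no separate finding. Limma, which draws each gene's spread toward that of genes of like level, gave Gpx1 a larger error than its own spread would.

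The setting that moved Gpx1 most was a correction for GC content, chosen after seeing the data. Gpx1 transcripts have 57.2% GC, and corrected log2 values were 11.86, 11.37 and 11.77 in core replicates 1 to 3 and 10.68, 11.49, 11.12, 11.31 and 11.06 in Roseburia replicates 1 to 5. The difference grew to −0.54 (SE 0.186), yet the groups then overlapped, since Roseburia replicate 2 exceeded core replicate 2.

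Over the 8 libraries, the genes whose pattern was most like that of Gpx1 (Pearson correlation of log2 values over 9587 genes, the group difference included) were Spon2, a secreted matrix protein (0.962), Hebp2, a haem-binding protein (0.95), and Cd151, a tetraspanin of cell adhesion (0.948). Hebp2 lay between 88.4 and 92.1 in core libraries, above the 52.4 to 64.9 of Roseburia libraries. Since the group difference of Gpx1 entered this ranking, it favoured genes whose groups are apart, and their split is no separate finding. Summed fibroblast and matrix markers were at 8542 to 9721 in core and 5499 to 7635 in Roseburia libraries (9 of 9 markers detected in every library). Their part in the Gpx1 difference was not tested.

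The other glutathione peroxidases had lower means with R. intestinalis, but their groups overlapped. Gpx2 was at 4638, 4074 and 4761 in core replicates 1 to 3 and at 3357, 3323, 3626, 5034 and 4031 in Roseburia replicates 1 to 5 (log2 difference −0.23, SE 0.155). Replicate 4 of the latter held the highest value of all 8 libraries, and without it the groups were apart (−0.33). Gpx3 was at 1708, 1635 and 1410, and at 1211, 1488, 1292, 1601 and 1359 (log2 difference −0.19, SE 0.131).

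For Gpx3, which fat also makes, adipocyte markers moved alongside. Their summed value was 2034 to 4749 in core and 578.8 to 2788 in Roseburia libraries, with the lowest in replicates 1 and 5 of the latter. Lep, which defines fat cells, was at 0 in at least 1 library, and the markers' part in the Gpx3 difference was not tested. Gpx4 had means of 1360 ± 179 (SD, n = 3) and 1298 ± 276 (SD, n = 5), a log2 difference of −0.08 (SE 0.176), well inside the spread of its libraries. With the GC correction the log2 differences of Gpx3 and Gpx4 were both −0.41, with groups that still overlapped.

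Txnrd1 had a higher mean with R. intestinalis, opposite in sign to Gpx1. Its values were 360, 448 and 364 in core replicates 1 to 3 and 701, 443, 553, 472 and 560 in Roseburia replicates 1 to 5. The groups touched at a single point, where core replicate 2 was just above Roseburia replicate 2. Means were 391 ± 49.7 (SD, n = 3) and 546 ± 100.3 (SD, n = 5), with a log2 difference of 0.47 (SE 0.168).

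Replicate 1 of Roseburia, the library with the highest GC-rich deviation, also had the highest Txnrd1. Without it the log2 difference was 0.37, and after the GC correction the corrected log2 values of Txnrd1 lay between 8.50 and 8.79 in core libraries and between 8.78 and 9.41 in Roseburia libraries. The authors' deposited table gave Txnrd1 a fold of 1.4 and a posterior probability of 0.14.

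The dismutases and catalase had similar means in the 2 groups. Sod1 averaged 2772 ± 666 (SD, n = 3) and 2837 ± 358 (SD, n = 5), a log2 difference of 0.05 (SE 0.169). Sod2 averaged 784 ± 65.9 and 750 ± 72.0 (log2 difference −0.07, SE 0.127), and all 8 of its values lay between 649 and 860. Cat averaged 1420 ± 270 and 1448 ± 409, and its sign depended on the setting, with log2 differences from −0.14 without Roseburia replicate 2 to 0.20 with the replicate block.

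The peroxiredoxins varied more within groups than between them. Prdx1, which reduces peroxide in the cytosol, averaged 2425 ± 504 (SD, n = 3) and 2265 ± 570 (SD, n = 5), a log2 difference of −0.11 (SE 0.217). Prdx6, which works with glutathione and also repairs oxidized phospholipids, averaged 4164 ± 1839 and 5579 ± 4305, a log2 difference of 0.12 (SE 0.626) that fell to −0.27 without core replicate 3. Its residual SD of 1.12 was at percentile 98.4 of all genes tested, the opposite end from Gpx1.

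Counted together, 7 of 10 members had a log2 difference below 0, as had 50.4% of all genes tested. Their median was −0.07, against −0.003 over all genes. Groups did not overlap in 1 of 10, Gpx1, which is lower with R. intestinalis, where they did not in 5.84% of genes in either direction and in 3.31% as lower. With a threshold of 0.95, set here, on the probabilities in the authors' deposited table, 1 of 10 was called, against 0.481% of all genes. Since Gpx1 was the reason for the choice, nothing is read from these shares. With limma, 0% of genes tested passed an adjusted p of 0.05 (smallest 0.503), and 8.13% had an unadjusted p below it (4.44% higher and 3.69% lower in Roseburia mice).

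The wide range of Prdx6 sorted with a marker of position along the gut. Hoxb13, a homeobox gene expressed toward the distal end of the colon, was lowest in Roseburia replicates 2 and 4 and in core replicate 3, at 2.16, 8.26 and 25.3. In these same 3 libraries Prdx6 was at 1626, 1745 and 2243. In core replicate 1, Roseburia replicates 1 and 3, core replicate 2 and Roseburia replicate 5, Hoxb13 was at 141, 247, 394, 439 and 663 and Prdx6 at 4339, 5531, 6935, 5908 and 12059.

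Prdx6 and Hoxb13 thus put the libraries in the same order apart from 1 neighbouring pair, and the highest Prdx6 value was 7.42 times the lowest. The 2 libraries of highest and lowest Prdx6 both carried R. intestinalis. The bile acid transporter Slc10a2, a marker of the opposite end, was at 818, 949 and 510 in the 3 libraries with low Prdx6 and between 13.9 and 414 in the others.

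**Figure D2:**
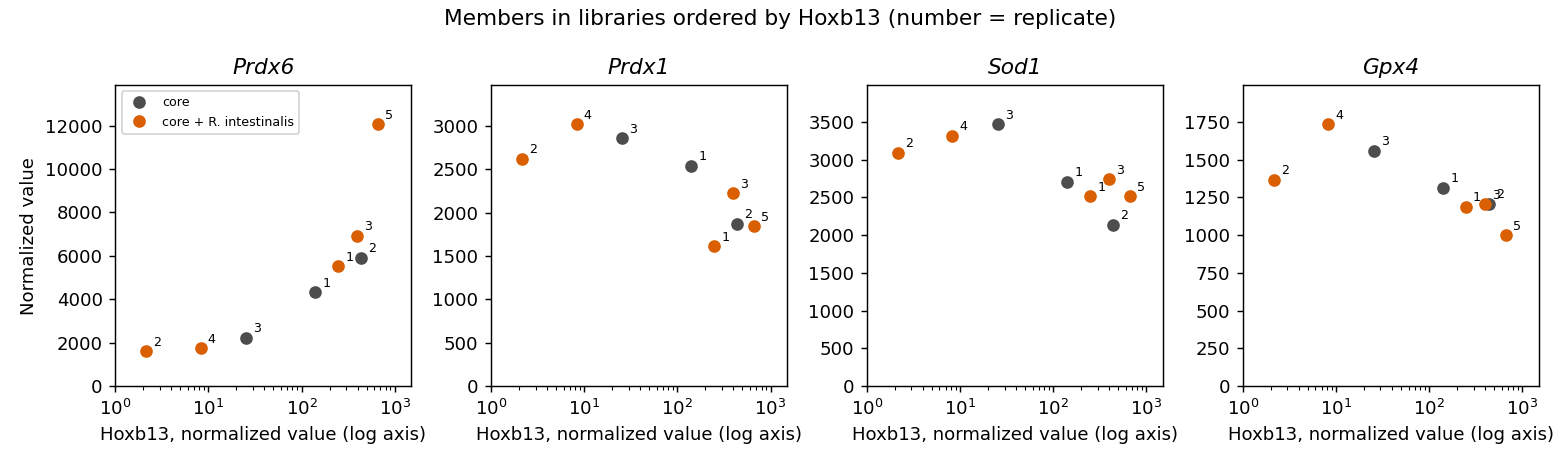
Normalized values of Prdx6, Prdx1, Sod1 and Gpx4 against Hoxb13 (log axis) in each library, numbered by replicate, for core and Roseburia. The 3 libraries with Hoxb13 of at most 25.3 have the lowest Prdx6 and the highest Prdx1, Sod1 and Gpx4 of the 8.

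Prdx1, Sod1 and Gpx4 ran the other way. In Roseburia replicates 2 and 4 and core replicate 3, Prdx1 was at 2621, 3019 and 2859, above its 1612 to 2543 in the other 5 libraries. Sod1 was at 3094, 3319 and 3469, against 2142 to 2741, and Gpx4 at 1366, 1734 and 1558, against 999 to 1314. So 3 of 10 members were higher in all of these 3 libraries than in the other 5, a pattern shown by 6.18% of all genes tested, and 1 of 10 was lower, as were 5.61%. Hoxb13 was picked with earlier results of these data known, and the libraries fell into 2 separate sets, so no correlation and no test is given.

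The patterns of Prdx6, Sod1 and Gpx4 were present after the GC correction, the length correction, trimmed mean rescaling and quantile normalization. That of Prdx1 was lost with the length correction. The remaining 6 members did not sort this way. Gpx1 in particular was at 2351, 2579 and 2917 in the 3 libraries with low Hoxb13 and at 2296 to 3063 in the others.

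Per kilobase of transcript, Sod1 and Gpx2 were the most abundant members. Sod1 averaged 4388 ± 700 and Gpx2 3848 ± 612 (SD, n = 8 libraries, normalized value per kilobase), and Sod1 was above Gpx2 in 6 of 8 libraries, so their order is not settled. Gpx1 followed with 2429 ± 261, below Gpx2 in all 8. Prdx6, with 2115 ± 1460, was below Gpx1 in 5 of 8 libraries and ranged from 681.2 to 5052.

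Lower down came Gpx4 (1378 ± 242 per kilobase), Prdx1 (1013 ± 224), Gpx3 (918 ± 110) and Cat (550.1 ± 131). Txnrd1 and Sod2 were the lowest, at 138 ± 32.2 and 130 ± 11.5 per kilobase, and Txnrd1 exceeded Sod2 in only 3 of 8 libraries. These levels rest on GENCODE transcript lengths, which may differ from the annotation behind the table, and for Sod2 the long 5861-base transcript lowers the level per kilobase.

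**Figure D3:**
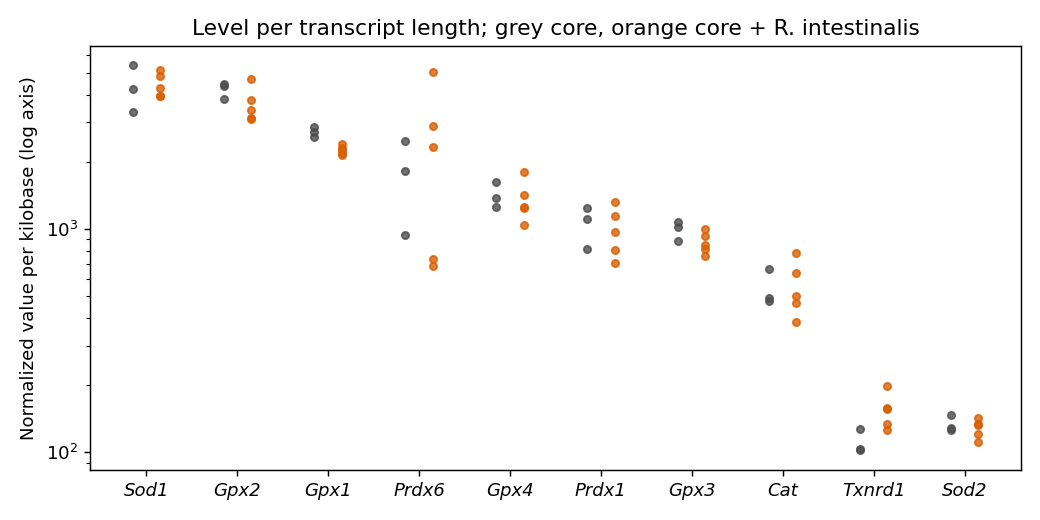
Normalized value per kilobase of transcript (log axis) for each member in each library, core in grey and Roseburia in orange, ordered by the mean over 8 libraries. Sod1 averages 4388 and Sod2 130 per kilobase, and Prdx6 spreads over the widest range.

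Txnrd1 belongs to the genes that the transcription factor NRF2 turns on under oxidative or electrophilic stress. A list of NRF2 targets together with NRF2 regulators had mostly higher means with R. intestinalis. Of 23 NRF2 regulators and targets (Txnrd1 not counted among them), 18 had a log2 difference above 0, as had 49.6% of all genes tested, with a median of 0.26. The regulators Nfe2l2, Keap1, Bach1, Maff, Mafg and Mafk were all above 0 (log2 differences 0.13 to 0.40). The genes below 0 (Hmox1, Slc7a11, Me1, Blvrb and Abcc4) were all targets, so the share above 0 among targets alone was lower. Groups did not overlap in 3 of 23, all higher, where this held for 2.53% of genes, and 7 of 23 had an unadjusted p below 0.05 as higher, where 4.44% of genes had. With limma, 0 of 23 passed the threshold adjusted over all genes (adjusted p from 0.588). With limma's library weights 4 of 23 passed and 12 of 23 had an unadjusted p below 0.05, all of them higher. Over all 13020 genes, 455 passed in that setting (279 higher), and 2024 had an unadjusted p below 0.05 as higher and 1805 as lower. That setting weighted Roseburia replicate 3 at 7.98, against 0.323 to 1.78 for the other libraries.

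Means of cell type markers differed as well, in both directions, though 0 genes of these lists passed the adjusted threshold. Summed values overlapped between the groups in every cell type list except fibroblast and matrix. Epithelial markers had 9 of 10 tested genes above 0 (median 0.21) and differentiated colonocyte markers 7 of 9 (median 0.17), while 8 of 9 smooth muscle markers (median −0.36) and 8 of 9 fibroblast and matrix markers (median −0.62) were below 0. Crypt and proliferation markers had 2 of 8 above 0 (median −0.08), adipocyte markers 0 of 8 (median −1.46) and lymphocyte markers 5 of 7 (median 0.33). Macrophage markers had 1 of 7 above 0 (median −0.24) and endothelial markers 2 of 7 (median −0.22). Enteric neuron and glia markers had 2 of 7 (median −0.26) and red blood cell markers 1 of 4 (median −0.67). Their part in the NRF2 list's values was not tested.

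Srxn1, sulfiredoxin, which repairs over-oxidized peroxiredoxins, was at 657, 728 and 817 in core replicates 1 to 3 and between 840 and 1173 in Roseburia libraries (log2 difference 0.38, SE 0.143). Gclm, the modifier subunit of the enzyme that starts glutathione synthesis, averaged 181 ± 54.3 (SD, n = 3) and 269 ± 53.9 (SD, n = 5), with overlap (log2 difference 0.59, SE 0.221). Tkt, transketolase, averaged 1459 ± 266 and 2122 ± 317, with no overlap (log2 difference 0.54, SE 0.16). Pgd, which makes NADPH, averaged 1725 ± 180 and 2166 ± 218, with overlap (log2 difference 0.33, SE 0.128).

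Fth1, the iron store ferritin heavy chain, was at 3851, 4097 and 4479 in core replicates 1 to 3, at 11064 in Roseburia replicate 1 and at 5564 to 5912 in the other 4 libraries of that group. Its groups did not overlap, and leaving out replicate 1 could not change that. Nfe2l2, which encodes NRF2 itself, averaged 3166 and 3462 (log2 difference 0.13, SE 0.209). The textbook NRF2 targets Nqo1 and Hmox1 had log2 differences of 0.14 (SE 0.327) and −0.22 (SE 0.191), so members of the list did not share 1 pattern.

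The count above 0 ran from 16 to 19 of 23 over the settings, and it was 16 with the GC correction, where the median was 0.11 and groups did not overlap in 2 of 23. Without core replicate 1 the count with an unadjusted p below 0.05 was 2 of 23, and the median 0.13. The list was chosen with earlier results known.

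**Figure D4:**
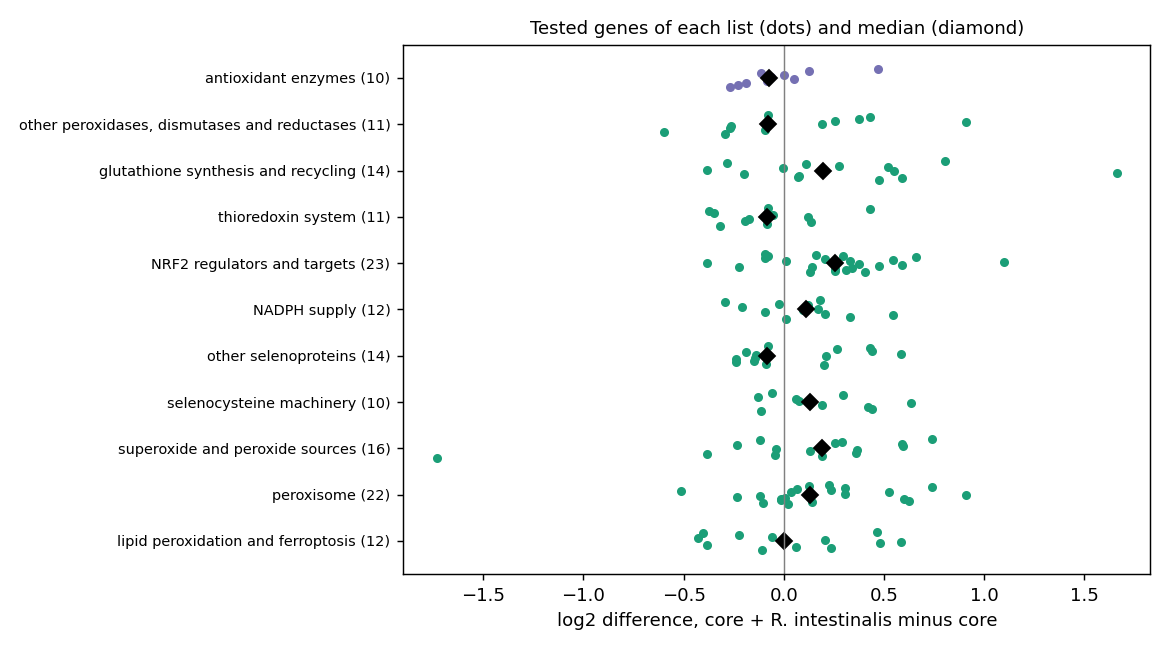
Log2 differences, Roseburia minus core, of the tested genes of each list (dots) and their median (diamonds), with the number of tested genes in parentheses. The median of the antioxidant enzymes is −0.07 and that of the NRF2 list 0.26, and no gene shown passed the adjusted threshold.

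Because Txnrd1 and Gclm are known to be driven through the antioxidant response element, RefSeq promoter windows (GRCm38.p6, 250 bases before to 50 after each start) were searched for its core, TGACNNNGC, or GCNNNGTCA on the opposite strand. A window was found for 9 of 10 members, Prdx6 being the exception. The core was present for 3 of 9 (Sod1, Prdx1 and Txnrd1) and for 10 of 20 genes of the NRF2 list, against 14.0% of 27025 genes with any window. A gene counted if any of its windows matched. Txnrd1 had 3 windows and Gpx4 had 4, while the other members with a window had 1 each. Of all 32851 windows, 12.4% matched. The stretches below (5′ to 3′ on the gene's strand) have the match in capitals.
Txnrd1 (chr10:82859104-82859132, plus strand): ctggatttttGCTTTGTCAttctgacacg
Prdx1 (chr4:116685456-116685484, plus strand): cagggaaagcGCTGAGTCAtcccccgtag
Sod1 (chr16:90220696-90220724, plus strand): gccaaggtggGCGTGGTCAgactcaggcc
Gclm (chr3:122245413-122245441, plus strand): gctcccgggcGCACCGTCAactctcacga
Me1 (chr9:86695902-86695930, minus strand): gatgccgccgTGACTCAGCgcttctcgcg
A match describes letters only. Of the genes shown, Txnrd1 and Gclm had log2 differences of 0.47 and 0.59, Prdx1 −0.11, Sod1 0.05 and Me1, which makes NADPH, −0.09. In the NRF2 list 8 of 10 genes with the core were above 0 (median 0.28), as were 8 of 10 with a window but no core (median 0.27). Among the members, 2 of 3 with the core and 0 of 6 without it were above 0. Cat, among those without it, was at −7.92e-05, and Gpx4, Sod1, Sod2, Cat and Prdx1 changed sign in at least 1 setting. Prdx6, which was above 0, had no window and is not counted. Nothing is read from this split.

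Other parts of the system showed no common direction. Among the other peroxidases, dismutases and reductases, 5 of 11 tested genes were above 0 (median −0.08), and 0 passed with limma. Gpx8, a peroxidase of the endoplasmic reticulum, averaged 155 ± 24.6 (SD, n = 3) and 104 ± 27.9 (SD, n = 5), with overlap (log2 difference −0.60, SE 0.233). Sod3, the extracellular dismutase, averaged 48.5 ± 23.6 and 94.2 ± 51.0, with overlap (log2 difference 0.91, SE 0.414). Its highest value, 180.28, was in Roseburia replicate 1.

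Glutathione synthesis and recycling had 10 of 14 genes above 0 (median 0.19), the peroxisome list 16 of 22 (median 0.13), NADPH supply 8 of 12 (median 0.11) and the thioredoxin system 3 of 11 (median −0.09).

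Among the other selenoproteins 6 of 14 tested genes were above 0 (median −0.08), and in the selenocysteine machinery 7 of 10 (median 0.13). Eefsec, the elongation factor that brings selenocysteine to the ribosome, averaged 52.2 ± 15.1 and 81.4 ± 21.6, with overlap (log2 difference 0.63, SE 0.261). Sephs2, which makes the selenium donor and is itself a selenoprotein, averaged 163 ± 15.3 and 228 ± 64.8, with overlap (log2 difference 0.44, SE 0.227). Superoxide and peroxide sources had 10 of 16 above 0 (median 0.19) and the lipid peroxidation list 6 of 12 (median near 0). In each of these lists 0 genes passed the limma threshold, with a smallest adjusted p of 0.588. At an unadjusted p below 0.05, where 4.44% of all genes were higher and 3.69% lower, the higher genes were 3 of 14 (21.4%) in the glutathione list, 3 of 22 (13.6%) in the peroxisome list and 2 of 12 (16.7%) in NADPH supply. They were 2 of 16 (12.5%) among superoxide and peroxide sources, 1 of 14 (7.14%) among the other selenoproteins and 1 of 10 in the selenocysteine machinery. The other peroxidases had 1 of 11 higher and 1 of 11 lower, and the thioredoxin and lipid peroxidation lists had 0 in either direction.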

How the data were processed

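Libraries were made with a stranded mRNA kit, per the labels' protocols. RSEM 1.2.23, Bowtie2 and mm9 appear in the submitters' processing notes without a role; the annotation and the tool behind the authors' probabilities are not stated. Per the file headers, the deposited table holds a normalized expression signal per gene and library. It also holds a posterior probability of differential expression from the authors, treated as a score between 0 and 1, and the authors' fold, a linear ratio with core as the denominator. No counts were given, so depth was estimated from the step on which low values cluster (79.8% to 84.4% of values under 30, tolerance 0.05), and whole reads were not assumed.

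Differences are on the log2(value + 1) scale, where changes of weakly expressed genes come out too small. Limma 3.58.1 (R 4.3.3, with a trend of variance on level) tested genes whose mean was 10 or more, with Benjamini-Hochberg adjustment over all of them and a threshold of 0.05. The fit was tested on simulated data. The spread behind each p-value is that between single mice. The members, lists and tests were chosen with earlier results of these data known. Named genes are all members, up to 3 tested genes with the smallest p in each pathway list, the 2 highest genes of a marker list and the 3 genes most like Gpx1. Nfe2l2, Nqo1, Hmox1, Me1, Txn1, Nox1, Glrx, Taldo1, Maoa, Hoxb13 and Slc10a2 were singled out after their values were seen. So were Keap1, Bach1, Maff, Mafg, Mafk, Slc7a11, Blvrb and Abcc4. Genes were matched by symbol or RefSeq synonym. Transcript length and GC content came from GENCODE M21, which covered 90.2% of genes tested and is of another build than the authors' mm9. The near-identical copies Prdx6b, Gpx2-ps1 and Gpx4-ps2 have no row of their own, so reads they share with Prdx6, Gpx2 or Gpx4 cannot be seen. Alternatives were pseudocounts of 0.5 and 5, a minimum mean of 50 or none, trimmed mean of M-values factors (written out in R), quantile normalization, leaving out single libraries, a replicate block, no trend and limma's library weights. Corrections for GC content and length (lowess, span 0.3) were chosen after seeing the data.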

Additional observations from a re-analysis of the deposited data

Results flagged for a closer look

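Among the 35 genes and 12 marker sums checked for a library far from the other 4 in the Roseburia group, 2 genes stood out, and chance flags about 1 in 20 such groups. Fth1, ferritin heavy chain, was at 11064 in Roseburia replicate 1 and at 5564 to 5912 in the other 4. Eefsec, the selenocysteine elongation factor, was at 118.18 in the same library.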

How the results depend on the processing

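Directions of Gpx1, Gpx2, Gpx3 and Txnrd1 were the same in all 19 settings, with log2 differences from −0.54 to −0.19 for Gpx1 and from 0.37 to 0.57 for Txnrd1. The groups of Gpx1 were apart in 18 of 19, the exception being the GC correction. Most of these settings could not change this, since pseudocounts, filters, model options and leaving out a library cannot make separate groups overlap. Of those that could, trimmed mean rescaling, quantile normalization and the length correction kept the groups apart. Leaving out 1 library gave 0 to 1 genes past the threshold, 270 (without core replicate 1) to 1908 (without Roseburia replicate 2) with an unadjusted p below 0.05, with 701 without Roseburia replicate 3, 1 to 2 members with groups apart and a member median from −0.15 to −0.007. The second member apart was Txnrd1 (without core replicate 2 or Roseburia replicate 2), Gpx3 (without core replicate 3) or Gpx2 (without Roseburia replicate 4). Members with groups apart numbered 0 with the GC correction and 2 with the length correction. Limma's library weights gave 455 genes past the threshold and 3829 with an unadjusted p below 0.05, with Roseburia replicate 3 weighted at 7.98. The replicate block gave 395 with an unadjusted p below 0.05 and 0 past the threshold. Libraries of the same replicate number did not deviate together (correlations −0.115, −0.53 and −0.07). Pairs by the submitters' own numbers, which differ for the core libraries, were not tried. Whether mice were paired is therefore not settled. The cause of the changes in these counts was not tested. Gpx4, Sod1, Sod2, Cat, Prdx1 and Prdx6 changed sign in at least 1 setting.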

Other observations

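The split of the libraries by Hoxb13 also appeared among other genes of the lists. Of 129 other tested pathway genes, 15 (11.6%) were higher in Roseburia replicates 2 and 4 and core replicate 3 than in the other 5 libraries, where 6.18% of all genes were, and 6 (4.65%) were lower, where 5.61% were. The higher ones included Glrx, a glutaredoxin that reduces protein-glutathione bonds (3416, 3412 and 3086, against 1733 to 2645), Nqo1, a quinone reductase (408, 410 and 390, against 156 to 293), and Taldo1, transaldolase (2448, 3247 and 2778, against 1603 to 2126). Maoa, a mitochondrial oxidase that makes peroxide, was at 12174, 11996 and 11822, against 6232 to 10654.

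The lower ones included Txn1, the cytosolic thioredoxin that Txnrd1 reduces, at 2388, 3178 and 4167, against 4332 to 5787. Nox1, the superoxide-making oxidase of the colon epithelium, was at 5.39, 3.54 and 20.7, against 26.0 to 113. These genes were singled out after their values were seen.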
